A study of Mus musculus with 12 samples.

Results

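The tetraspanins examined here are 7 genes of the family that leukocytes are known for, *Cd9*, *Cd37*, *Cd53*, *Cd63*, *Cd81*, *Cd82* and *Cd151*. They were found by their symbols in the GRCm38 gene annotation, and each symbol matched 1 identifier. All 7 were among the 55487 genes of the count table, and all 7 were among the 16908 genes that passed the filter on low counts and were tested. The RNA came from 12 libraries of microglia of YARG mice at postnatal day 13 (P13), which carry a yellow fluorescent protein (YFP) reporter allele. Cells from the region of the basal forebrain and striatum were sorted as CX3CR1+ CD206- and then split by YFP into ARG1+ and ARG1- microglia, with 3 female and 3 male libraries in each population. All 4 groups thus carry the reporter allele, no group was treated, and each library pooled the tissue of several mice of 1 sex (3 litters per sex), so that error values describe the spread between pools and not between animals. The study's methods describe both populations as sorted from such pools, the labels do not say which libraries share a pool, and the tests treat all libraries as independent.

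Tetraspanins are small proteins that cross the membrane several times and gather integrins, immunoglobulin-like receptors and proteases into clusters. Some of them act at the cell surface, in adhesion, migration and receptor signaling, and others travel to late endosomes and leave the cell on extracellular vesicles. In microglia, as in other macrophages, several members are abundant, and antibodies to CD9, CD63 and CD81 are in common use as markers of vesicles.

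Levels are given in CPM, counts scaled to the TMM-normalized total of each library, unless a value per exon length is named. Total counts lay between 28356659 and 60625170, so 3 counts equal at most 0.102 CPM. Log2 fold changes (log2 changes below), standard errors (SE), 95% intervals and p values were obtained with the quasi-likelihood test of edgeR on all 12 libraries with sex as a second term, and p values were adjusted by the Benjamini–Hochberg method over all genes tested. In the whole table, 15.9% of tested genes passed an adjusted p of 0.05 between the populations, 6.44% higher and 9.42% lower in ARG1+ microglia. The genes called higher thus made up 40.6% of those called, and 55.2% when libraries were scaled by their totals alone. Bulk values cannot separate fewer cells of a kind from less RNA per cell.

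*Cd53* fell and *Cd151* rose in ARG1+ microglia, and the other 5 genes did not pass the test. *Cd53* was at 2590 ± 330 CPM in ARG1- and 1433 ± 159 CPM in ARG1+ microglia (mean and SD, n = 6 each), 0.553 times the ARG1- level. *Cd151* was at 4.21 ± 1.80 CPM and 9.07 ± 2.63 CPM, 2.24 times the ARG1- level. The members called make up 28.6% of the 7, against 15.9% of all genes tested and 23.0% of the 9851 genes at or above the mean CPM of *Cd151*, and 7 genes are too few to read a difference from these shares.

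**Figure D1:**
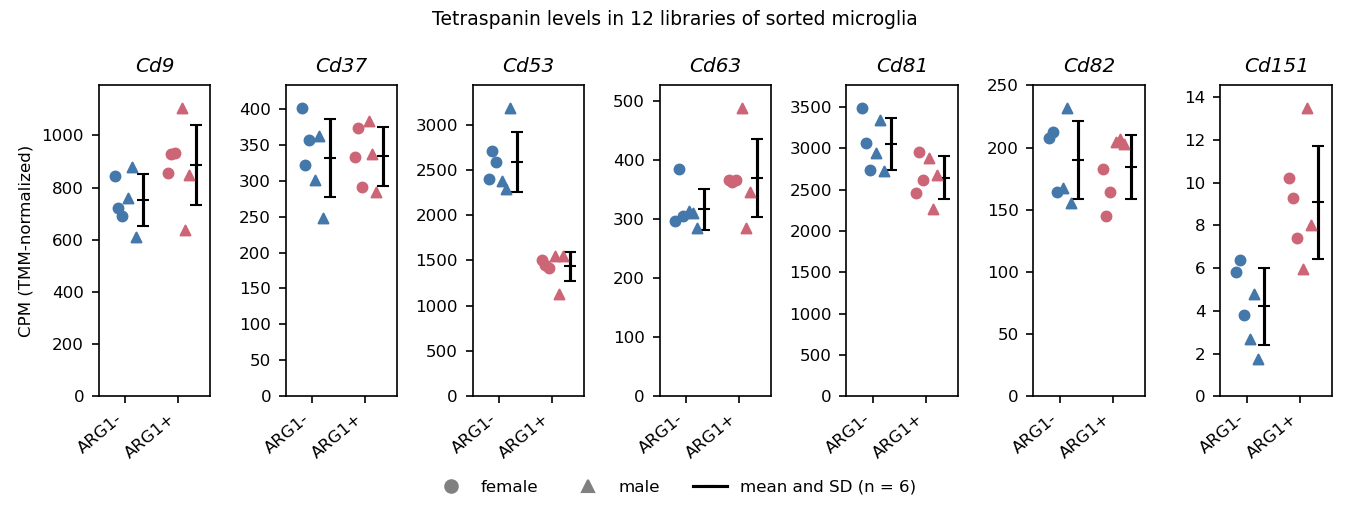
Level of each tetraspanin in CPM (vertical axis, from 0, a separate scale for each gene) in ARG1- (blue) and ARG1+ (red) libraries, with circles for female and triangles for male libraries and black bars for the mean and SD of 6 libraries. The 6 ARG1+ libraries lie below the 6 ARG1- libraries for *Cd53*, between 1127 and 1550 CPM, and the populations overlap in the other 6 genes.

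The 5′ ends of the changed genes are shown first, since they are where transcription of *Cd53* and *Cd151* begins, and that of *Cd37* is shown beside them as the other leukocyte-restricted member, which did not pass the test. The RefSeq promoter table of GRCm38.p6, with 250 bases before and 50 bases from each start, held all 7 members. *Cd53* starts on the minus strand in the window chr3:106790100-106790399, *Cd37* on the minus strand in chr7:45238790-45239089 and *Cd151* on the plus strand in chr7:141467112-141467411. Each is written 5′ to 3′ in the direction of transcription, and capitals mark the letters searched on both strands: GAGGAAGT, a sequence that the macrophage factor PU.1 is known to bind (ACTTCCTC on the other strand), GGGCGG, the GC box, and CACGTG, the E box. TATAAA, the TATA box, was searched as well and is in none of the windows shown.
Cd53: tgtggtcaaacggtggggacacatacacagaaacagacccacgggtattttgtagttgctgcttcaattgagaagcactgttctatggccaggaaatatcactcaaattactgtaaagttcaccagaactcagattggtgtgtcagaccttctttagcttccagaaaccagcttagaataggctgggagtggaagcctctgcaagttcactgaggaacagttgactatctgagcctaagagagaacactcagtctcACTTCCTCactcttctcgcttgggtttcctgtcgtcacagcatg
Cd37: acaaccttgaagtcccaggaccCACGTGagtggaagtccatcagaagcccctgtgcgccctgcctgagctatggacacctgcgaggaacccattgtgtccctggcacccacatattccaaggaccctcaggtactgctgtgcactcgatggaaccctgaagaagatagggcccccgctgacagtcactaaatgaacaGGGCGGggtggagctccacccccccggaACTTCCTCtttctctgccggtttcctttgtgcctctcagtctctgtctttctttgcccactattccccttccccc
Cd151: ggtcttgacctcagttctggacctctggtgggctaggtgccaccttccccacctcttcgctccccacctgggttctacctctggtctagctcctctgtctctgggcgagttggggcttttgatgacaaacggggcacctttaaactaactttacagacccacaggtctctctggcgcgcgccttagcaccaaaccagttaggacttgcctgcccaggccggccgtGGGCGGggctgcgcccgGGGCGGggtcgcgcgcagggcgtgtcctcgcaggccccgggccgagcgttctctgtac

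The *Cd53* window held GAGGAAGT on the opposite strand, 6 bases after the start, and no GGGCGG. *Cd37* held the same letters on the same strand 25 bases before the start, together with 1 GGGCGG and 1 CACGTG. *Cd151* has 2 starts in the table, and the first, shown here, held GGGCGG 25 and 8 bases before it and no GAGGAAGT. The second, downstream, held none of the letters searched. Of the other members, a downstream start of *Cd82* had GAGGAAGT, and *Cd9*, *Cd81* and *Cd82* had GGGCGG. *Cd81* also had TATAAA, 6 bases after the start. In all 32841 windows of the table, 3.2% held GAGGAAGT, 35.7% held GGGCGG, 7.15% held CACGTG and 13.6% held TATAAA. The motifs do not overlap each other in the windows shown. The GC content was 46.3% in the *Cd53* window, 57.7% in that of *Cd37* and 64.3% in that of *Cd151*. These matches describe the sequence only.

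*Cd53* (ENSMUSG00000040747, chr3:106759921-106790149 of GRCm38, minus strand) encodes a tetraspanin made almost only by leukocytes, where it takes part in adhesion and signaling. In ARG1- microglia it was at 2397, 2711 and 2583 CPM in female and 2372, 2292 and 3187 CPM in male libraries. In ARG1+ microglia it was at 1504, 1454 and 1417 CPM in female and 1547, 1127 and 1550 CPM in male libraries. The lowest ARG1- library thus lay above the highest ARG1+ library, a separation that 10% of the genes tested showed, 6.56% with ARG1+ libraries below and 3.48% with them above. The log2 change was -0.85 (SE 0.10, 95% interval -1.08 to -0.63, adjusted p = 5.8e-04), which placed *Cd53* at rank 57 of the 16908 genes by p value. Its exons are shared with no other annotated gene. *Cd53* passed the test without any 1 of the 12 libraries, with log2 changes between -0.89 and -0.75.

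*Cd37* (ENSMUSG00000030798, chr7:45233632-45239115, minus strand), the other member restricted to leukocytes, is known to organize integrins and the fungal receptor Dectin-1 in the membrane. It ranged from 248 to 402 CPM with a median of 339 CPM in ARG1- and from 285 to 383 CPM with a median of 335 CPM in ARG1+ microglia. The ARG1+ libraries lay within the range of the ARG1- libraries, and the log2 change was 0.01 (SE 0.12, 95% interval -0.25 to 0.27, adjusted p = 0.959). The level of *Cd37* relative to *Cd53* was 0.131 ± 0.032 in ARG1- and 0.236 ± 0.041 in ARG1+ microglia (CPM ratio, SD, n = 6), from 0.0777 to 0.168 against 0.184 to 0.30.

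Of the members that mark vesicles, none passed the test. *Cd81* (ENSMUSG00000037706, chr7:143052739-143067934, plus strand) encodes a partner of integrins and immunoglobulin-like proteins. It ranged from 2724 to 3490 CPM (median 3000) in ARG1- libraries and from 2262 to 2959 CPM (median 2644) in ARG1+ libraries, so that the ranges overlapped between 2724 and 2959 CPM. The log2 change was -0.21 (SE 0.09, 95% interval -0.40 to -0.02). The unadjusted p of edgeR's test was 0.0348 and the adjusted p was 0.135.

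*Cd9* (ENSMUSG00000030342, chr6:125460266-125494791, minus strand) is known for its part in cell fusion and adhesion and binds the immunoglobulin-like protein encoded by *Igsf8*. It ranged from 610 to 879 CPM (median 742) in ARG1- and from 638 to 1106 CPM (median 892) in ARG1+ microglia. Of the ARG1+ libraries, 3 of 6 lay within the ARG1- range, and the log2 change was 0.24 (SE 0.13, 95% interval -0.04 to 0.52, adjusted p = 0.249). *Cd63* (ENSMUSG00000025351, chr10:128900989-128912822, plus strand) resides in late endosomes and lysosomes. It ranged from 285 to 385 CPM (median 309) in ARG1- and from 286 to 490 CPM (median 365) in ARG1+ microglia. The lowest values of the populations were alike, and the log2 change was 0.22 (SE 0.12, 95% interval -0.04 to 0.49, adjusted p = 0.251). The CPM ratio of *Cd9* to *Cd63* was 2.39 ± 0.383 in ARG1- and 2.40 ± 0.139 in ARG1+ microglia (mean and SD, n = 6).

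*Cd151* (ENSMUSG00000025510, chr7:141467392-141471473, plus strand) binds the laminin receptors among the integrins and was by far the least abundant member, with 59 to 643 counts per library. In ARG1- microglia it was at 5.82, 6.39 and 3.80 CPM in female and 2.70, 4.78 and 1.75 CPM in male libraries. In ARG1+ microglia it was at 10.2, 9.29 and 7.41 CPM in female and 5.96, 13.5 and 8.03 CPM in male libraries. ARG1+ male replicate 11 fell within the ARG1- range, and the other 5 ARG1+ libraries lay above it. The log2 change was 1.16 (SE 0.33, 95% interval 0.44 to 1.88, adjusted p = 0.0328).

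The call of *Cd151* rested on single libraries. The log2 change and adjusted p of edgeR's test were 1.11 and 0.0642 without ARG1- female replicate 13, 1.19 and 0.0602 without ARG1+ female replicate 7, and 1.22 and 0.0540 without ARG1+ female replicate 8. They were 1.07 and 0.0711 without ARG1- male replicate 5, 0.97 and 0.0708 without ARG1+ male replicate 12, and 1.18 and 0.0583 without ARG1+ male replicate 16. The gene passed the test without any 1 of the other 6 libraries. Of the exon bases of *Cd151*, 7.04% overlap *Gm10575* on the opposite strand, which had more counts than *Cd151* itself, at 18.2 ± 5.81 CPM in ARG1- and 20.9 ± 6.39 CPM in ARG1+ microglia (log2 change 0.20, adjusted p = 0.642). Whether reads were counted by strand is not given in the sources used here, and how far reads of *Gm10575* enter the values of *Cd151* was not tested.

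*Cd82* (ENSMUSG00000027215, chr2:93419111-93463140, minus strand) is known as a suppressor of metastasis that restrains integrin signaling and cell migration. It ranged from 155 to 232 CPM (median 188) in ARG1- and from 145 to 206 CPM (median 193) in ARG1+ microglia. The populations overlapped between 155 and 206 CPM, and the log2 change was -0.05 (SE 0.13, 95% interval -0.33 to 0.23, adjusted p = 0.835). Scaling by library totals alone turned its sign, to 0.05.

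**Figure D2:**
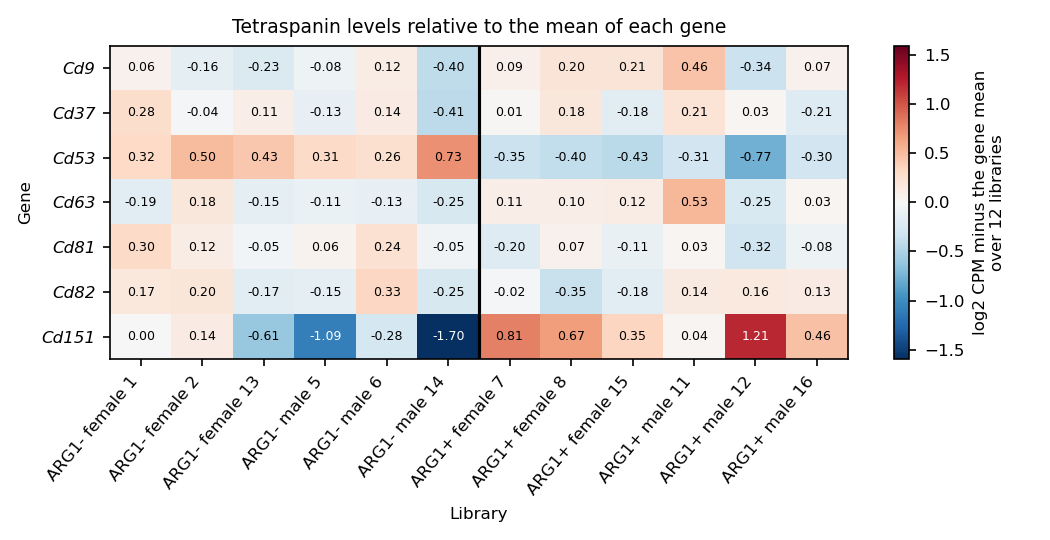
Level of each tetraspanin (rows) in each library (columns) as log2 CPM minus the mean of that gene over the 12 libraries, in red above and in blue below the mean, with ARG1- libraries left and ARG1+ libraries right of the black line. *Cd53* is above its mean in the 6 ARG1- libraries and below it in the 6 ARG1+ libraries, and *Cd151* spans from -1.70 in ARG1- male replicate 14 to 1.21 in ARG1+ male replicate 12.

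A pair of libraries held many of the extreme values. ARG1- male replicate 14 was the lowest ARG1- library in 6 of the 7 members and the highest in *Cd53*. ARG1+ male replicate 12 was the lowest ARG1+ library in 4 members (*Cd9*, *Cd53*, *Cd63* and *Cd81*) and the highest in *Cd82* and *Cd151*. Without both libraries, the log2 change of *Cd53* was -0.70 and it still passed the test, and that of *Cd151* was 0.84 (adjusted p = 0.0774, edgeR). The label numbers of the libraries run from 13 to 16 in 1 library of each group and below 13 in the rest, and what the numbers stand for is not given in the labels. In the 2 libraries per population numbered 13 to 16, *Cd53* differed by -0.95 and *Cd151* by 1.56 in mean log2 CPM, and in the other 4 per population by -0.80 and 0.99. *Cd9* differed by 0.46 and 0.12 in the same sets, *Cd81* by -0.05 and -0.29, and *Cd63* by 0.27 and 0.18. *Cd82* differed by 0.19 and -0.15 and *Cd37* by -0.05 and 0.05, so that these genes changed sign between the sets.

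Per exon length, the order of the members differed between the populations at its top. In CPM per kilobase of exon (RPKM), the order in ARG1- microglia was *Cd53* (1487), *Cd81* (1059), *Cd9* (367), *Cd37* (94.2), *Cd63* (86.0), *Cd82* (63.2) and *Cd151* (1.54). In ARG1+ microglia it was *Cd81* (917), *Cd53* (823), *Cd9* (433), *Cd63* (100), *Cd37* (94.7), *Cd82* (61.4) and *Cd151* (3.31). *Cd53* exceeded *Cd81* in 6 of 6 ARG1- libraries, and *Cd81* exceeded *Cd53* in 5 of 6 ARG1+ libraries. *Cd37* and *Cd63* overlapped over libraries in both populations, and so did *Cd81* and *Cd53* in ARG1+ microglia, whereas the other neighbours in the order did not overlap. This order depends on the length used: with the length of the principal transcript, the mean of *Cd81* was the higher in both populations (1989 and 1723 RPKM, against 1487 and 823 RPKM for *Cd53*), in 5 of 6 ARG1- libraries, where the ranges overlapped, and in 6 of 6 ARG1+ libraries. The CPM ratio of *Cd53* to *Cd81*, which uses no length, was 0.863 ± 0.183 in ARG1- and 0.543 ± 0.047 in ARG1+ microglia (mean and SD, n = 6), from 0.685 to 1.17 against 0.491 to 0.612. The CPM of the 7 genes summed to 7233 ± 328 in ARG1- and 5857 ± 588 in ARG1+ microglia (mean and SD, n = 6).

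The difference in *Cd53* was seen in each sex. In females its log2 change was -0.81 (SE 0.15, adjusted p = 0.0129), where 6.76% of genes passed the edgeR test, and in males it was -0.89 (SE 0.15, adjusted p = 0.0175), where 5.13% passed. With 3 libraries a group these calls depended on single ARG1+ libraries. In females the log2 change and adjusted p were -0.80 and 0.0801 without ARG1+ replicate 7, -0.78 and 0.0711 without replicate 8, and -0.77 and 0.0573 without replicate 15. In males they were -0.74 and 0.0906 without ARG1+ replicate 12 and -0.95 and 0.0790 without replicate 16. Calls over all genes fell in the same fits. In females 1143 genes were called with all libraries, and 91, 193 and 436 without ARG1+ replicates 7, 8 and 15. In males 868 were called with all libraries, and 8 and 27 without ARG1+ replicates 12 and 16. The shares of genes passed in each sex thus also depended on single libraries. *Cd151* had a log2 change of 0.75 (SE 0.45, adjusted p = 0.360) in females and of 1.58 (SE 0.45, adjusted p = 0.0675) in males. In males, *Cd151* passed with DESeq2 (adjusted p = 0.00449), which called 2553 genes there. It also passed with a filter of 10 counts in every library (adjusted p = 0.0320, edgeR), where 1253 genes were called. Both settings called more genes in males than the 868 of the main fit. The difference between the sexes in the ARG1 effect was -0.83 for *Cd151* (SE 0.63, 95% interval -2.21 to 0.55, adjusted p = 0.755) and 0.08 for *Cd53* (SE 0.21, 95% interval -0.37 to 0.53, adjusted p = 0.977).

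Between females and males, 0 of the 7 members passed edgeR's test in ARG1- microglia, where 0.0946% of genes did, and 0 of 7 in ARG1+ microglia, where 0.0355% did. DESeq2 called more genes, 397 between the sexes in ARG1- and 39 in ARG1+ microglia, of which 0 were members. At an unadjusted p under 0.05, edgeR's test had 1692 genes in ARG1- and 528 in ARG1+ microglia, of which 0 were members. The smallest adjusted p among members was 0.598, for *Cd151* in ARG1- microglia, at 5.34 ± 1.36 CPM in females and 3.08 ± 1.55 CPM in males (SD, n = 3 each). *Cd82* in ARG1+ microglia was at 164 ± 19.1 CPM in females and 205 ± 1.67 CPM in males (SD, n = 3 each), with a log2 difference of -0.32 (95% interval -0.68 to 0.05, adjusted p = 1, edgeR). The interaction of ARG1 status and sex was called for 0 members and for 0.00% of genes (1576 at an unadjusted p under 0.05, of which 0 were members), and DESeq2 called 278 genes but 0 members.

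Leukocyte genes of other cell types and markers of microglia were measured beside *Cd53*. Of 8 markers of homeostatic microglia, 6 fell and 0 rose in ARG1+ microglia, with summed levels from 47685 to 63629 CPM in ARG1- and from 37564 to 48371 CPM in ARG1+ libraries. *Siglech*, a sialic acid receptor, had a log2 change of -0.73 (adjusted p = 4.3e-04), *Gpr34*, a lysophospholipid receptor, of -0.92 (adjusted p = 6.5e-04), *Tmem119* of -0.77 (adjusted p = 0.00109) and *Olfml3* of -0.62 (adjusted p = 0.00185). *P2ry12*, the purine receptor of microglial processes and the most abundant of the list per length, had a log2 change of -0.55 (adjusted p = 0.00243). *Cx3cr1* and *Csf1r* did not pass the test (log2 changes of 0.08 and 0.05). The change in *Cd53* lay within the range of the microglial markers that fell, and whether they move with a common cell or RNA content was not tested.

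Of 5 B cell markers, only *Cd79b* passed the filter, and it fell (log2 change -1.09, adjusted p = 4.7e-04). The list summed to 134 to 178 CPM in ARG1- and 56.7 to 93.3 CPM in ARG1+ libraries, and *Pax5* was at 0 in all libraries. T cell markers summed to at most 0.661 CPM, with 5 of 6 at 0 in every library and *Trac* as the most abundant. Of 6 monocyte markers 3 were tested and *Plac8* fell (log2 change -2.38, adjusted p = 0.00466). Of these 3, 1 had a log2 change above 0 and 2 below. The monocyte list summed to 5.05 to 14.1 CPM against 1.89 to 6.70 CPM, and *Chil3* was at 0. Of 6 platelet markers 4 were tested and *Gp9* fell (log2 change -0.95, adjusted p = 0.00933). The other 3 did not pass and had log2 changes above 0, and the median of the 4 was 0.35. The platelet list summed to 55.1 to 104 CPM against 45.7 to 81.7 CPM, and *Ppbp* was at 0. The part of these cells in the values of *Cd53* was not tested.

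Of 7 border macrophage markers 5 were tested and 0 passed, with sums from 106 to 141 CPM in ARG1- and from 112 to 237 CPM in ARG1+ libraries, nearly all of it *Mrc1* (121 ± 16.1 and 147 ± 46.4 CPM, adjusted p = 0.371). Of 6 oligodendrocyte markers *Cnp* fell (log2 change -0.55, adjusted p = 0.00467), with sums from 259 to 379 CPM against 171 to 262 CPM. Of 6 astrocyte markers *Slc1a3* fell (log2 change -0.43, adjusted p = 0.00817), with sums from 163 to 220 CPM against 128 to 147 CPM. Of these 6, 2 had a log2 change above 0 and 4 below. No marker of oligodendrocyte precursors passed (sums from 0 to 11.3 CPM against 0 to 4.87 CPM, *Olig1* the most abundant per length). None of neurons passed (6.08 to 15 CPM against 0.920 to 6.68 CPM, *Tubb3* the most abundant per length). Among endothelial markers *Cldn5* was at 0 in all libraries, 0 of 4 tested passed, and the sums ranged from 29.8 to 58.1 CPM against 44.9 to 83.6 CPM, mostly *Pecam1* (log2 change 0.53, adjusted p = 0.0913). Of these 4, 3 had a log2 change above 0 and 1 below (*Cdh5*, -0.71). The range of that list reached higher in ARG1+ libraries, as that of *Cd151* did, but the populations overlapped. The part of endothelial cells in the values of *Cd151* was not tested.

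The rest of the tetraspanin family was represented by 24 genes, of which 18 were tested. In ARG1+ microglia 0 of these rose and 4 fell, 22.2% of those tested against 15.9% of all genes. The median log2 change over the 18 was -0.35, where that of all genes tested was 0.06. This median lay between *Tspan2* (-0.43, SE 2.21) and *Rom1* (-0.28, SE 1.05), which both had libraries without a count. These 18 genes are too few to read a difference from the values over all genes. *Tspan7* had 334 ± 40.6 CPM in ARG1- and 203 ± 25.0 CPM in ARG1+ microglia (mean and SD, n = 6), a log2 change of -0.72 (SE 0.11, adjusted p = 0.00139), without overlap of the populations. *Tspan31* fell from 304 ± 21.6 to 208 ± 12.1 CPM, a log2 change of -0.54 (SE 0.08, adjusted p = 0.00106), also without overlap. Both passed without any 1 of the 12 libraries.

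*Upk1b*, a uroplakin of the bladder lining, had 56.1 ± 12.4 CPM in ARG1- and 29.2 ± 15.4 CPM in ARG1+ microglia (log2 change -1.0, SE 0.25, adjusted p = 0.0176). Without ARG1+ female replicate 8, ARG1+ male replicate 12 or ARG1+ male replicate 16 its log2 change was -0.96, -0.87 or -0.94 and the adjusted p was 0.0509, 0.0598 or 0.0595. *Tspan4*, the tetraspanin known from the migrasomes that migrating cells leave behind, had 224 ± 34.0 CPM in ARG1- and 154 ± 36.9 CPM in ARG1+ microglia (log2 change -0.54, SE 0.17, adjusted p = 0.0460). It passed when ARG1+ female replicate 8, ARG1- male replicate 14 or ARG1+ male replicate 11 was left out, and failed without any 1 of the other 9 libraries (adjusted p up to 0.123). It passed under 3 of 10 other settings, and the adjusted p was 0.0581, 0.0586 and 0.0856 with DESeq2 size factors, upper-quartile factors and library totals in place of TMM. *Tspan4* lies on chromosome 7, 3.766 kb beyond the end of *Cd151*, and had the opposite sign. *Tspan14*, the most abundant of these genes per length, was at 492 ± 28.6 and 459 ± 41.9 CPM (log2 change -0.10, adjusted p = 0.439). *Tspan1* and *Prph2* had no count in any library.

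**Figure D3:**
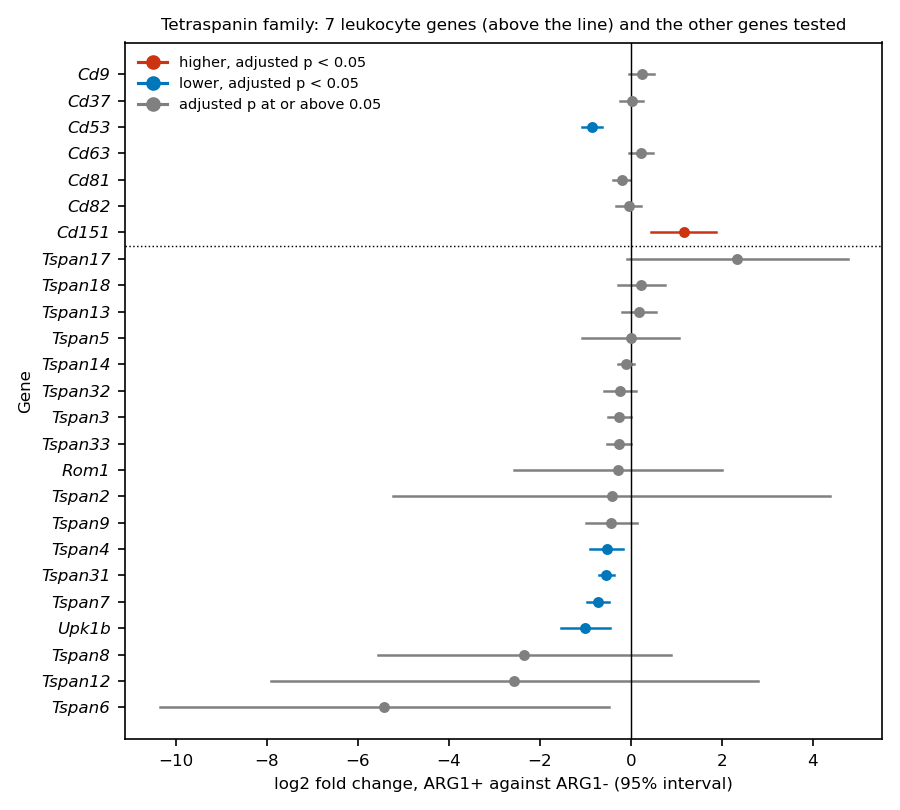
Log2 fold change of ARG1+ against ARG1- microglia (horizontal axis) with its 95% interval for the 7 members (above the dotted line) and the 18 other family genes tested (below it, ordered by fold change), with colors for the side on which the adjusted p was under 0.05. *Cd151* is the only gene called higher, and *Cd53*, *Tspan4*, *Tspan31*, *Tspan7* and *Upk1b* are called lower, while genes of few counts such as *Tspan6* have wide intervals.

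Tetraspanins work through the proteins they hold. The TspanC8 members escort the shedding protease ADAM10 to the surface, and of 8 genes in this list 6 were tested, 1 rose and 0 fell (16.7%, median log2 change 0.09). *Adam17*, the related protease that CD9 is known to bind, rose from 412 ± 40.5 to 536 ± 86.8 CPM (SD, n = 6, log2 change 0.38, adjusted p = 0.0430), and *Adam10* was at 627 ± 81.2 and 710 ± 122 CPM (log2 change 0.18, adjusted p = 0.357). *Adam17* passed when ARG1- female replicate 1, ARG1+ female replicate 15 or ARG1+ male replicate 11 was left out, and failed without any 1 of the other 9 libraries (adjusted p up to 0.0903). It passed under 6 of 10 other settings.

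Of 18 genes for known membrane partners, *Adam10* and *Adam17* included, 14 were tested, 2 rose and 1 fell (21.4%, median log2 change 0.30). *Clec7a*, which encodes Dectin-1, the receptor that CD37 stabilizes, rose from 19.9 ± 6.98 to 77 ± 24.9 CPM (SD, n = 6), a log2 change of 1.90 (SE 0.27, adjusted p = 0.00105), without overlap of the populations and without loss of the call when any 1 library was left out. *Ifitm3*, an interferon-induced antiviral protein found in tetraspanin complexes, fell from 21.4 ± 6.08 to 10.8 ± 3.61 CPM (log2 change -1.0, adjusted p = 0.0300). It passed when ARG1- female replicate 1 or 13, ARG1+ female replicate 8 or 15 or ARG1- male replicate 14 was left out, and failed without any 1 of the other 7 libraries (adjusted p up to 0.0854). It passed under 6 of 10 other settings. Among integrin chains, *Itgb1*, the most abundant of the list per length, was at 717 ± 125 and 806 ± 88.1 CPM (log2 change 0.18, adjusted p = 0.347), and *Itga6*, a partner of CD151, at 500 ± 104 and 627 ± 94.2 CPM (log2 change 0.33, adjusted p = 0.153). *Igsf8*, the partner of CD9 and CD81, was at 81.2 ± 19.9 and 101 ± 15.5 CPM (log2 change 0.30, adjusted p = 0.231). *Itga3*, the classical integrin partner of CD151, was not tested, with 55 counts in 1 ARG1- library and 0 in all others.

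Of 16 genes for endosomes and extracellular vesicles, where CD63 travels, 15 were tested, 1 rose and 1 fell (13.3%, median log2 change 0.01). *Pdcd6ip*, which encodes ALIX, a factor of vesicle budding, rose from 142 ± 25.2 to 202 ± 31.3 CPM (SD, n = 6, log2 change 0.51, adjusted p = 0.0264). The populations did not overlap but nearly met, at 179.9 CPM in the highest ARG1- and 180.0 CPM in the lowest ARG1+ library. Without ARG1- female replicate 13, ARG1- male replicate 5 or ARG1- male replicate 6 the log2 change of *Pdcd6ip* was 0.48, 0.43 or 0.49. The adjusted p of edgeR's test was then 0.0577, 0.0542 or 0.0581. *Sdcbp*, which encodes syntenin, the adaptor that binds CD63, fell from 1052 ± 147 to 842 ± 55.1 CPM (log2 change -0.32, adjusted p = 0.0415). It passed when ARG1- female replicate 1 or ARG1- male replicate 6 was left out, and failed without any 1 of the other 10 libraries (adjusted p up to 0.136). It passed under 3 of 10 other settings, and the adjusted p was 0.0744, 0.0590 and 0.185 with DESeq2 size factors, upper-quartile factors and library totals. *Lamp1*, the lysosomal membrane protein and the most abundant of the list per length, did not pass (log2 change 0.11, adjusted p = 0.438).

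The genes with a pattern most like that of each member were found by the root mean square (RMS) difference in log2 CPM, with each gene centred on its own mean, over the 12 libraries and 9183 genes. They describe these libraries, and all genes share the same libraries and scaling. For *Cd53* they were *Vdac3* (RMS difference 0.0978) and *Evi2a* (0.118), and for *Cd81* they were *Itm2b* (0.0810) and *Cyc1* (0.0901). For *Cd9* they were *Srsf2* (0.125) and *Tpd52* (0.132), for *Cd63* *Prelid1* (0.113) and *Nudt9* (0.124), for *Cd37* *Ctsd* (0.121) and *Wbp2* (0.127), and for *Cd82* *Atf6b* (0.110) and *Plscr3* (0.130). *Cd151* had no gene as near, with *Gm45837* (0.282) and *Atp8a2* (0.322). Among the members themselves, *Cd9* and *Cd63* were the nearest pair (0.160) and *Cd53* and *Cd151* the farthest (1.2).

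Some exon bases of 3 further members are annotated to a gene on the opposite strand, 10.7% of *Cd9* (*Gm26728*), 3.61% of *Cd81* (*R74862*) and 0.369% of *Cd37* (*Tead2*). *Gm26728* was at 82.5 ± 8.22 and 94.8 ± 11.4 CPM and *R74862* at 112 ± 13.1 and 96.7 ± 9.32 CPM in ARG1- and ARG1+ microglia (SD, n = 6). Processed pseudogenes of *Cd9* and *Cd63* are annotated as well, and they were at 0.985 and 1.03 CPM (*Cd9-ps*) and at 3.98 and 4.42 CPM (*Cd63-ps*). The part of such reads in the values of the members was not tested.

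**Figure D4:**
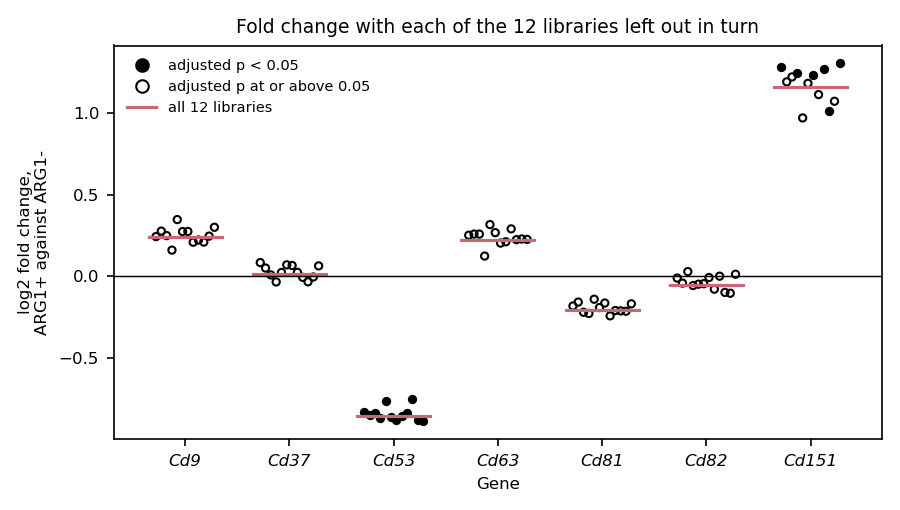
Log2 fold change of ARG1+ against ARG1- microglia (vertical axis) for each member with all 12 libraries (red line) and with each single library omitted (points, filled where the adjusted p of edgeR's test was under 0.05). *Cd53* stays between -0.89 and -0.75 with all points filled, *Cd151* lies between 0.97 and 1.30 with 6 of 12 points filled, and *Cd37* and *Cd82* cross 0.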

How the data were processed

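RNA was amplified with SMART-Seq v4, made into libraries with Nextera XT and sequenced. Per the labels and the study's methods, the authors demultiplexed with bcl2fastq 2.20.0, aligned with STAR 2.6.1d to GRCm38 and counted reads on genes with featureCounts 1.5.1. The values the authors deposited are raw counts per gene, without normalization, for 12 libraries. Reads carry no molecular identifiers, so copies made by amplification are counted as reads, and the strand setting of the counting is not given in the sources used here.

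Symbols and exon lengths were taken from GENCODE M21, which matched 55227 of 55487 identifiers (the rest held 0.0333% of counts). Counts were tested in R 4.3.3 with edgeR 4.0.16 (filterByExpr on the 4 groups, TMM, glmQLFit, glmQLFTest, Benjamini–Hochberg, limit 0.05), with ARG1 status and sex as terms, and with contrasts of the 4 group means for effects within and between the sexes. Centred log2 CPM values used a prior count of 2. Replicate libraries differed by more than sampling noise (chi-square per degree of freedom from 40.7 to 125). The test was checked on simulated counts of 16908 genes for ARG1+ against ARG1-, where it called 35 of 97 genes changed 2-fold and 61 of 94 changed 4-fold, all in the right direction, and 2 unchanged genes.

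The members, gene lists and rules were chosen with earlier results of these data known. Genes named are every member, up to 4 called genes of smallest p and the most abundant gene per length of each list, and the 2 genes nearest in pattern to each member (mean log2 CPM of at least 3). *Cx3cr1*, *Csf1r*, *Cdh5*, *Adam10*, *Igsf8*, *Itga3* and *Itga6* were named after their values were seen. So were *Tspan1*, *Tspan2*, *Tspan6*, *Rom1*, *Prph2*, markers at 0, and the genes that overlap or copy a member. Alternatives were DESeq2 1.42.0, other normalizations, filters and covariates, and each library left out in turn. Some genes are not reported here.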

Additional observations from a re-analysis of the deposited data

Results flagged for a closer look

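Of 36 sets of 6 libraries examined for a single value far from the rest by Dixon's test, 4 held one, where chance gives about 1.8. *Cd53* in ARG1+ male replicate 12 was at 1127 CPM, below the other 5 ARG1+ libraries, which lay between 1417 and 1550 CPM. *Cd63* in ARG1- female replicate 2 was at 385 CPM, above the other ARG1- libraries. *Upk1b* in ARG1+ female replicate 15 was at 59.0 CPM, within the range of the ARG1- libraries, and *Pdcd6ip* in ARG1+ male replicate 16 was at 262 CPM, above the other ARG1+ libraries. The cause of these values was not tested.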

How the results depend on the processing

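No paired analysis was possible because the groups share no replicate numbers in the labels. *Cd53* passed the test under all 10 other settings (log2 fold changes from -0.85 to -0.70) and all 12 omissions of a library. *Cd151* passed under 8 of 10 other settings. With the 4 libraries numbered 13 to 16 left out, an alternative chosen after seeing the data, the log2 fold change of *Cd151* was 1.04 (adjusted p = 0.145) and 1 member was called. With ARG1- male replicate 14 and ARG1+ male replicate 12 both left out, likewise chosen afterwards, it was 0.84 (adjusted p = 0.0774), 1 member was called and *Cd37* was at -0.036. With library totals alone *Cd82* was at 0.046. A minimum of 10 counts in every library left 1 endosome and vesicle gene called, and it and DESeq2 each called 2 members in males. In males these settings called 1253 and 2553 of all genes, against 868 in the main fit. With 1 library left out, 1 to 2 members were called, and the log2 fold changes ranged from 0.97 to 1.30 for *Cd151*, from -0.035 to 0.084 for *Cd37* and from -0.10 to 0.029 for *Cd82*. The counts then ranged from 2 to 4 for the rest of the family, from 0 to 1 for the TspanC8 list, from 1 to 4 for membrane partners, from 0 to 3 for endosome and vesicle genes, and from 0 to 1 for members in females and in males. Of the values of the 9 called genes of the family, TspanC8, partner and endosome lists, 65 kept their call and 25 lost it under other settings, and 67 kept and 41 lost it with 1 library left out, none with a change of sign. The cell type markers were not refitted. Over all genes, 2682 were called, 4101 with DESeq2, 638 without libraries 13 to 16 and 1753 without ARG1+ male replicate 12. The median log2 fold change of all genes was 0.06, and 0.15 with library totals alone. The causes were not tested. Among the members, counting error is largest for *Cd151*, which had as few as 59 counts.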
